A study of Mus musculus with 16 samples.

Results

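The genes described here encode the subunits of the ionotropic and metabotropic glutamate receptors and of the GABA-A and GABA-B receptors. They were taken by gene symbol from the protein-coding rows of the read count table: 42 of its 19457 genes. By class, 4 encode AMPA, 5 kainate, 2 delta and 7 NMDA receptor subunits, 7 encode metabotropic glutamate receptors, 15 GABA-A and 2 GABA-B receptor subunits. RefSeq lists 46 mouse genes under the same symbols, and Gabra6, Grm6, Gabrr1 and Gabrr3 were not analysed here.

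Striatal RNA was sequenced from wild-type (WT) animals and from mice carrying the label GS, read as the LRRK2 G2019S genotype that the series title names. Each genotype was sampled intact, without an injection, and at 6 h, 3 d and 15 d after ATP was infused into the striatum of 1 side of the brain (0.8 µl of 500 mM), which gave 8 groups of 2 libraries. Intact mice received nothing, so effects of ATP, of the fluid itself and of the needle enter every comparison with them and cannot be told apart. Age, sex, strain and the kind of GS allele, knock-in or transgene, remain not given in the sources used here. Replicates are labelled biological, but nothing ties them to separate animals, so the p-values measure the spread between these libraries.

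Glutamate drives fast excitation through AMPA, kainate and NMDA receptors, which are ion channels built from 4 subunits, and slower signals through metabotropic receptors coupled to G proteins. GABA opens the chloride channel of GABA-A receptors, which have 5 subunits, and acts through the G-protein-coupled GABA-B receptor. Most striatal neurons are GABAergic projection neurons, which receive glutamate from cortex and thalamus and carry both synaptic and extrasynaptic GABA-A receptors. Astrocytes express some of these genes as well, Grm3 among them.

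Libraries held 49220578 to 63948110 counts, and the 42 members took 0.527% to 0.697% of them. All 42 members passed the filter on low counts, and every gene in the table had at least 1 count in every library. Markers of cortical excitatory neurons (10 of 12 measured, none of the 10 at 0) were uneven within groups: their summed level was 301 CPM (counts scaled to the effective size of each library) in WT intact replicate 1 and 251 in WT 6 h replicate 2, against 107 and 135 in the other replicate of each group, and 152 in WT 15 d replicate 1. Results were therefore also computed without these 3 libraries. Pan-neuronal markers (8 of 8 measured) summed to 4930 to 5249 CPM in the intact libraries, 4849 to 5033 at 6 h, 4104 to 4918 at 3 d and 3675 to 4222 at 15 d. Microglia and macrophage markers (8 of 8 measured) summed to 380.2 to 404.5 CPM intact, 270.3 to 301 at 6 h, 742 to 1447 at 3 d and 871 to 1792 at 15 d. Astrocyte markers (7 of 7 measured) summed to 4202 to 4366 CPM intact, 3837 to 4123 at 6 h, 5541 to 7111 at 3 d and 6176 to 6588 at 15 d. In RNA from whole tissue, fewer cells of a type and less RNA per cell cannot be told apart.

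In the intact striatum the members spanned a wide range of levels per gene length, given here as CPM per kilobase of exon (mean ± SD, n = 4 libraries). Gabbr1, the GABA-B subunit that binds GABA, was highest at 102 ± 5.59, above Gria1 (the AMPA subunit GluA1) at 82.7 ± 5.76. Grin1, the subunit every NMDA receptor needs, was at 63.5 ± 4.16 and overlapped with Grik5 (the kainate subunit GluK5) at 58.8 ± 3.76. Among those that followed were Gria2, Gabrd, Grm5, Gabra4 and Gabrb2, between 51.5 ± 1.85 and 33.6 ± 2.47. Among 41 pairs of neighbours in this order, 30 had overlapping ranges. The order depends on a length that counts all annotated exons of a gene, used in striatum or not. In CPM alone, Gria2 (mean 801) and Gabbr1 (mean 790) were highest, with overlapping ranges. At the bottom, Gabrr2, Grin3b and Gabre were at 0.225 ± 0.0599, 0.141 ± 0.0178 and 0.0833 ± 0.0389, and the lowest count of these 3 genes in any library was 9, for Grin3b at 15 d.

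More receptor subunit genes were called lower than higher at each time after injury. The log2 change was below 0, called or not, in 24 of 42 members at 6 h, 35 at 3 d and 36 at 15 d, and in 50.6%, 52.1% and 52.7% of all genes. Against the intact libraries, with genotypes averaged (4 libraries against 4), 4 members rose and 7 fell at 6 h, 1 rose and 17 fell at 3 d, and 1 rose and 28 fell at 15 d (edgeR quasi-likelihood test, Benjamini-Hochberg adjusted p under 0.05 over 18813 genes). Over all genes tested, 11.5% were called higher and 9.76% lower at 6 h, 23.4% and 23.2% at 3 d, and 23.6% and 23.8% at 15 d. At 6 h, 3 d and 15 d the members had median log2 changes of -0.04, -0.18 and -0.35, beside 0.00, -0.02 and -0.02 over all genes. The 4 injured libraries lay below all 4 intact libraries for 8 members at 6 h, 8 at 3 d and 23 at 15 d, where 11.4%, 18.6% and 20.8% of all genes did so. They lay above them for 5 members at 6 h, 1 at 3 d and 0 at 15 d, where 12.9%, 19.8% and 21.5% of all genes did. The counts of members below at 3 d and above at 6 h were near these shares of all genes. The 3 comparisons share the 4 intact libraries. Of the 42 members, 8 were called at no time, among them Gabra2, Gabra3, Gabrg1, Gabrq, Grik1, Grik4 and Grin3b. The matching share of all genes was not counted.

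**Figure D1:**
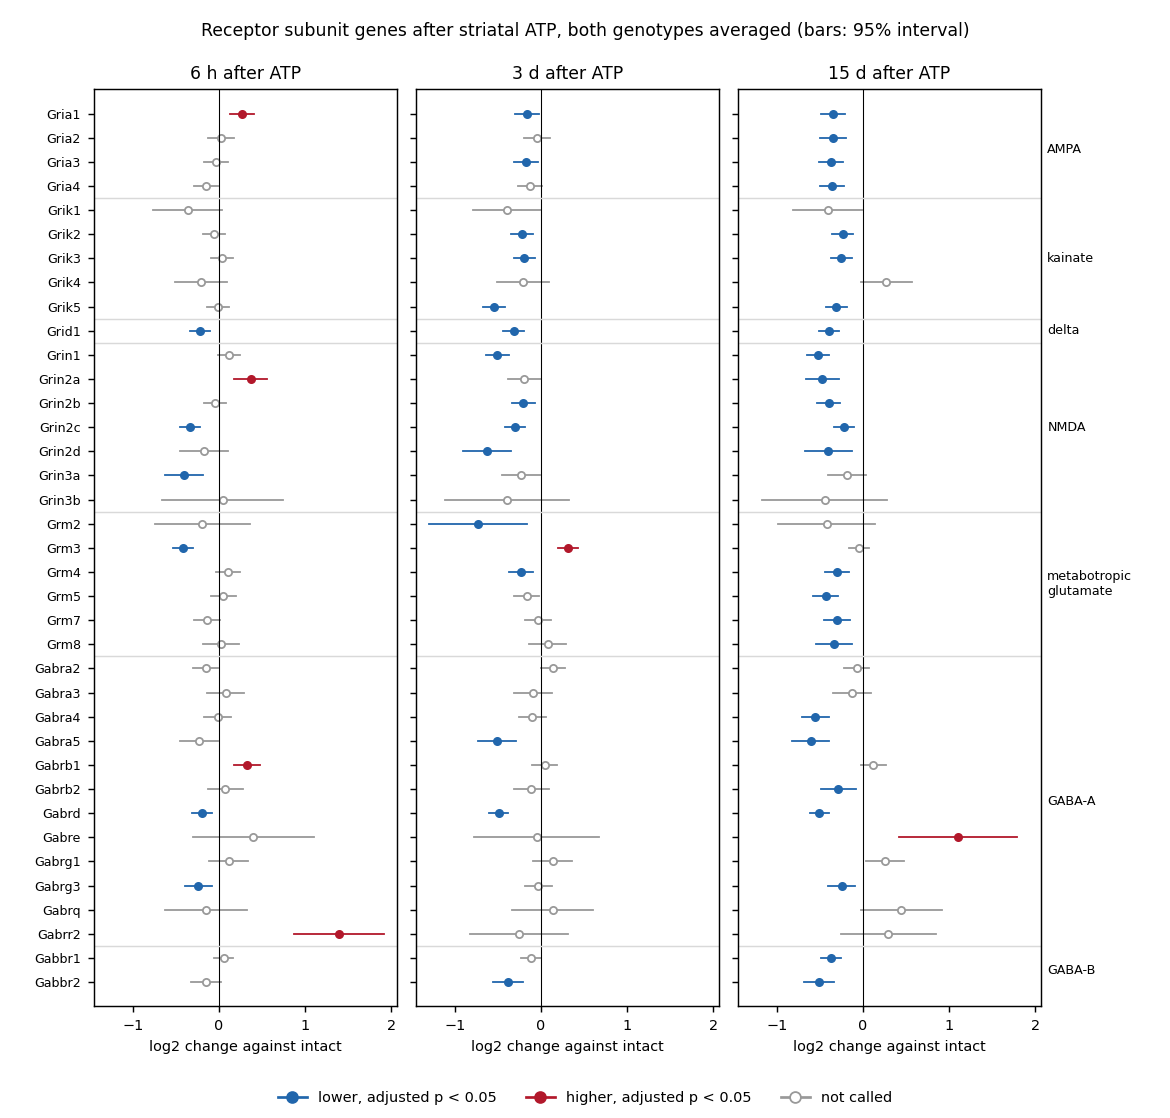
Log2 change against the intact libraries (horizontal axis) of 37 members in rows by receptor class, at 6 h, 3 d and 15 d, with genotypes averaged; points are edgeR estimates, bars 95% intervals, and filled points passed the test. At 15 d, 24 of these members lie to the left of 0 with filled points and Gabre alone lies to the right with one.

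Pan-neuronal markers were lower too: their mean log2 changes at the 3 times were -0.08, -0.28 and -0.38, with 3, 5 and 8 of the 8 markers called lower. Projection neuron markers (10 of 10 measured) had means of -0.06, -0.20 and -0.42. The number of members whose change lay below the pan-neuronal mean was 18 of 42 at 6 h, 12 at 3 d and 17 at 15 d. Members measured relative to these markers are given after the receptor classes. In what follows, values per library are CPM in the order WT replicate 1, WT replicate 2, GS replicate 1 and GS replicate 2, and changes are log2 changes ± SE from edgeR with genotypes averaged.

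AMPA receptors carry most of the fast excitatory current. Gria1 was at 468, 471, 534 and 525 CPM in the intact libraries, 578, 609.7, 618 and 601 at 6 h, 526, 416, 427 and 410.5 at 3 d and 433, 377, 384 and 374 at 15 d. All 4 libraries at 6 h were above, and all 4 at 15 d below, every intact library, while those at 3 d overlapped with them. Gria1 rose at 6 h by 0.27 ± 0.07 (adjusted p = 0.00961) and fell at 15 d, with a change of -0.35 ± 0.07 (adjusted p = 0.000544). Its call at 3 d (-0.17 ± 0.07, adjusted p = 0.0483) was lost on leaving out any of 13 libraries, with adjusted p up to 0.212. Gria2, whose product keeps calcium out of the channel, was at 760 to 824 CPM intact and 578 to 705 at 15 d, a change of -0.35 ± 0.07 (adjusted p = 0.00116). Gria3 and Gria4 also fell at 15 d, with changes of -0.37 and -0.36. That made 4 of 4 AMPA genes called lower at that time, where 23.8% of all genes were. Per exon length, Gria1 made up 47.1% to 51.8% of AMPA subunit RNA in the intact libraries, 51.6% to 55.2% at 6 h and 48.1% to 50.6% at 15 d. That share rests on the annotated exon length, and in CPM Gria2 was above Gria1 in every intact library.

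Kainate receptors modulate transmitter release and synaptic integration, and Grik5 encodes a subunit that binds glutamate tightly but needs a partner subunit to form a channel. Grik5 was at 311, 277, 323 and 303 CPM in the intact libraries, 319, 308, 290.1 and 289 at 6 h, 220.1, 212, 216 and 183 at 3 d and 232, 259, 237 and 251 at 15 d. The 3 d libraries held the lowest levels, and both later groups lay below every intact library. Its change was -0.55 ± 0.06 at 3 d (adjusted p = 5.37e-06) and -0.31 ± 0.06 at 15 d (adjusted p = 0.000627). Grik2 and Grik3 fell by 0.22 and 0.20 on the log2 scale at 3 d and by 0.24 and 0.25 at 15 d. The 3 d call of Grik3 was lost without WT intact replicate 2, GS intact replicate 2 or WT 3 d replicate 2 (adjusted p = 0.055, 0.06 and 0.0627). Grik1 and Grik4, both under 10 CPM in every library, did not pass the test at any time.

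Delta receptors resemble ionotropic glutamate receptors in sequence and act as synapse organizers that bind cerebellins. Grid1 was at 77.9, 79.2, 91.2 and 88.5 CPM in the intact libraries, 62.5, 71.8, 76.5 and 77.9 at 6 h, 71.4, 65.1, 70.6 and 62.1 at 3 d and 63.4, 64.6, 65.4 and 61.8 at 15 d. Every injured library was below every intact one, at 6 h by a narrow margin. The changes of Grid1 were -0.22 ± 0.06, -0.32 ± 0.06 and -0.40 ± 0.06 (adjusted p = 0.0114, 0.000295 and 4.46e-05). Without WT 6 h replicate 1 the 6 h call was lost (adjusted p = 0.0562).

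NMDA receptors pair the obligatory subunit of Grin1 with GluN2 or GluN3 subunits, which set the kinetics and calcium permeability. Grin1 was at 592, 574, 663 and 636 CPM in the intact libraries, 691, 685, 645 and 652 at 6 h, 502, 428, 437 and 369.5 at 3 d and 429, 437, 407 and 442 at 15 d. The 6 h libraries overlapped with the intact ones, and all 8 later libraries lay below them. Its change was 0.12 ± 0.06 at 6 h, which did not pass, -0.51 ± 0.06 at 3 d (adjusted p = 1.35e-05) and -0.52 ± 0.06 at 15 d (adjusted p = 9.03e-06). Exons of Grin1 overlap those of the antisense gene Grin1os over 13.5% of their length, and reads of the pair cannot be told apart here because no source says whether the counting used strand. In all, 18 of the 42 members share exon bases with another gene, on the opposite or the same strand, and reads there cannot be told apart either. Opposite-strand overlaps include Grin3b with Tmem259 (32.1% of its exon length), Grin2d with Gm45441 (9.7%), Grm2 with Gm28111 (9.6%) and Gabra5 with Gm9962 (5.0%).

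The GluN2 genes are taken in turn. Grin2a, the GluN2A subunit gene of mature synapses, was at 110.1, 105, 110.3 and 126 CPM in the intact libraries, 145, 148, 140.3 and 148 at 6 h, 108, 82.0, 91.4 and 113 at 3 d and 91.4, 78.1, 83.2 and 72.8 at 15 d. It was thus above every intact library at 6 h and below every intact library at 15 d. Grin2a rose by 0.37 ± 0.09 at 6 h (adjusted p = 0.00999) and had a change of -0.47 ± 0.09 at 15 d (adjusted p = 0.000603). Grin2c was at 97.1, 95.5, 98.8 and 101 CPM in the intact libraries, 79.9, 73.8, 76.8 and 79.8 at 6 h, 73.7, 78.4, 87.3 and 78.6 at 3 d and 76.5, 88.5, 85.2 and 86.0 at 15 d. It was below every intact library at all 3 times, with changes of -0.34 ± 0.05, -0.30 ± 0.05 and -0.22 ± 0.05 (adjusted p = 0.000755, 0.000354 and 0.00338). At 15 d its call was lost without the 3 WT libraries high in cortical markers (-0.17, adjusted p = 0.0506).

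Grin2b, the GluN2B subunit gene, was not called at 6 h, had a change of -0.20 ± 0.06 at 3 d (adjusted p = 0.0141, and 0.0647 without WT 3 d replicate 2) and one of -0.40 ± 0.06 at 15 d (adjusted p = 0.000104). Grin2d was low, at 9.51, 10.97, 10.9 and 8.59 CPM in the intact libraries, 8.76, 7.94, 8.95 and 9.80 at 6 h, 7.97, 5.11, 6.53 and 6.19 at 3 d and 6.82, 7.83, 8.20 and 7.41 at 15 d. Both later groups lay below every intact library, and its change was -0.63 ± 0.13 at 3 d (adjusted p = 0.00116). Its 15 d call (-0.40 ± 0.13, adjusted p = 0.019) was lost without WT intact replicate 2, GS intact replicate 1, WT 15 d replicate 1 or GS 15 d replicate 2, with adjusted p up to 0.0925. Grin3a, whose product lowers calcium permeability, was at 24.0, 18.2, 19.6 and 17.2 CPM intact, 15.4, 14.9, 14.0 and 15.2 at 6 h, 15.4, 17.0, 15.4 and 19.3 at 3 d and 18.2, 16.7, 18.9 and 15.4 at 15 d. Only at 6 h did it pass, below every intact library (-0.41 ± 0.10, adjusted p = 0.0122), and that call was lost without WT intact replicate 1, GS intact replicate 1 or GS 6 h replicate 1 (adjusted p = 0.0638, 0.0517 and 0.0528). Grin3b, at 0.158 to 0.614 CPM, passed at no time.

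**Figure D2:**
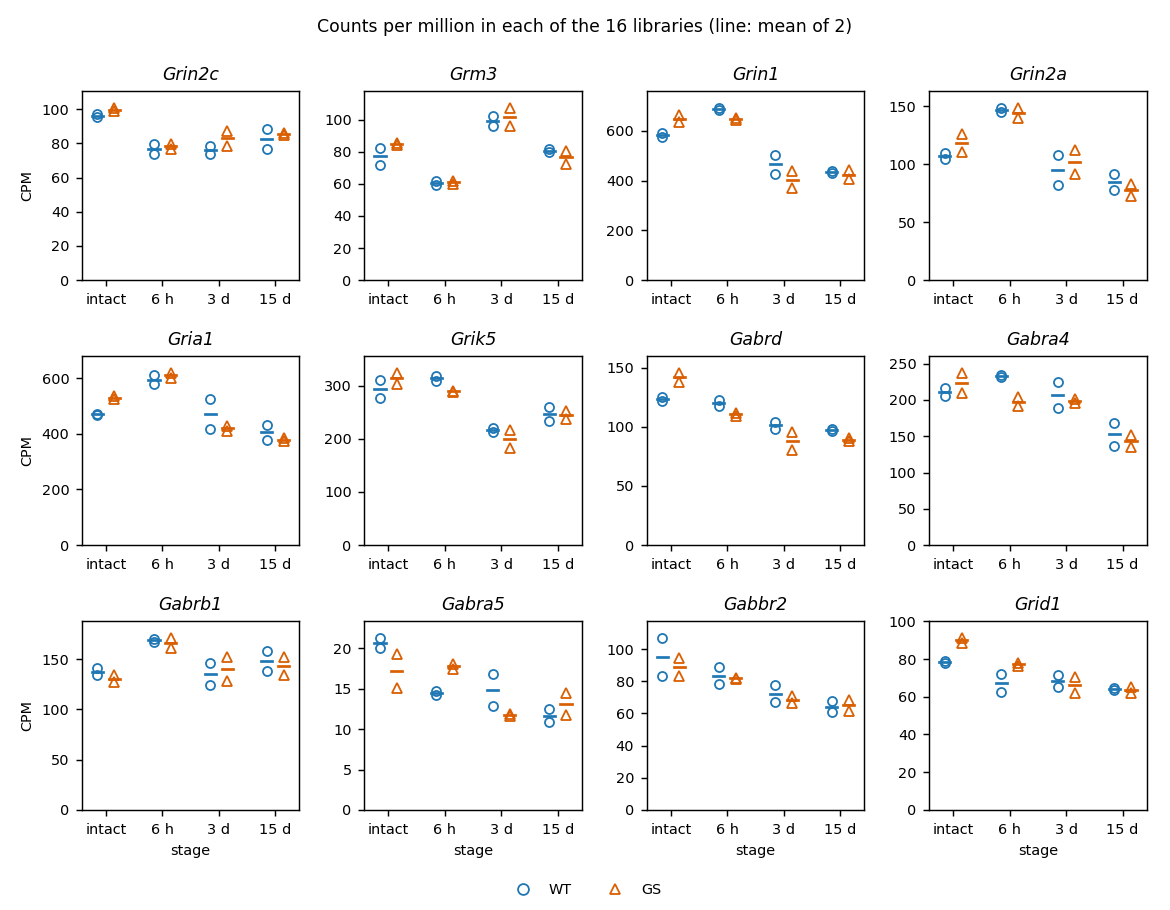
CPM (vertical axis, from 0) of 12 members in each library by stage, with circles for WT, triangles for GS and a line at the mean of the 2 libraries. Grm3 is lowest at 6 h and highest at 3 d, Grin2a and Gria1 are highest at 6 h and lowest at 15 d, and Gabra4 is lowest at 15 d in both genotypes.

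Group I metabotropic receptors couple to phospholipase C. Grm5, which encodes one of them, was at 389 to 416 CPM intact and 274 to 332 at 15 d, and passed at 15 d alone (-0.43 ± 0.07, adjusted p = 0.000117).

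Group II receptors, encoded by Grm2 and Grm3, lower cyclic AMP. Grm3 was at 71.9, 82.4, 84.2 and 85.6 CPM in the intact libraries, 61.6, 59.2, 59.7 and 62.0 at 6 h, 102, 95.8, 96.2 and 107 at 3 d and 81.4, 79.6, 80.5 and 72.5 at 15 d. All libraries at 6 h were below and all at 3 d above the intact range, and those at 15 d were within it. The changes were -0.42 ± 0.06 at 6 h (adjusted p = 0.000226), 0.31 ± 0.06 at 3 d (adjusted p = 0.000373) and -0.04 ± 0.06 at 15 d, which did not pass. Grm3 was the 1 member called higher at 3 d. Of the 7 astrocyte markers, 0 were called lower and 1 higher at 6 h, and 6 were called higher at 3 d and at 15 d, with mean log2 changes of 0.20, 1.14 and 1.31. The summed level of these markers went the other way at 6 h, at 3837 to 4123 CPM against 4202 to 4366 intact. Their part in the change of Grm3 was not tested. Grm2 was at 2.87, 1.54, 1.59 and 1.28 CPM intact, 1.04, 2.15, 1.43 and 1.61 at 6 h, 1.51, 1.11, 1.06 and 0.696 at 3 d and 1.26, 1.36, 1.62 and 1.08 at 15 d. Its change at 3 d (-0.73 ± 0.27, adjusted p = 0.0356) came with overlapping ranges and was lost without WT intact replicate 1, GS intact replicate 1, WT 3 d replicate 2 or GS 3 d replicate 2 (adjusted p = 0.193, 0.106, 0.109 and 0.128).

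Group III receptors, encoded by Grm4, Grm7 and Grm8, act mainly on presynaptic terminals. All 3 genes were called lower at 15 d, with changes of -0.30 ± 0.07, -0.30 ± 0.07 and -0.34 ± 0.10 (adjusted p = 0.00144, 0.00288 and 0.0122). Over all genes, 23.8% were called lower at that time. Grm4 fell at 3 d as well, with a change of -0.23 ± 0.06 (adjusted p = 0.00866, and 0.0506 without WT intact replicate 2). The 15 d call of Grm8 was lost without GS intact replicate 2 or GS 15 d replicate 2 (adjusted p = 0.062 and 0.0598).

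Gene starts of Grin1 and Grm3, a pair that moved in opposite directions at 3 d, are shown because they held the letters GCGGGGGCG bound by the immediate early EGR factors. Of 34 RefSeq promoter windows for 27 members, from 250 bases before to 50 after a gene start, 2 held these letters on either strand, as did 2.91% of 32851 mouse windows. The 30 bases around each match are given 5′ to 3′ on the gene's strand, with the match in capitals (RefSeq, GRCm38.p6, which is mm10). The Grin1 stretch is chr2:25319164-25319193 on the minus strand, with the match starting at base 5 of the gene, and the Grm3 stretch is chr5:9725337-9725366 on the minus strand, with the match starting 4 bases before the gene.
Grin1: gcgtcaggaaGCGGGGGCGgtgggaggggt
Grm3: gcgcagccggGCGGGGGCGggggcaggggg
The matches are a description of the letters and not of binding. TGACGTCA, the element bound by CREB, was in 0 of the 34 windows and in 1.79% of all windows, and TGANTCA, bound by AP-1, was in the windows of Grin3b and Grm8 and in 7.81% of all.

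GABA-A receptors at synapses mostly combine alpha, beta and gamma subunits, and receptors with a delta subunit lie outside synapses and carry a tonic current. Many of these genes sit in clusters (mm10): Gabrg1, Gabra2, Gabra4 and Gabrb1 on chromosome 5, Gabrg3 and Gabra5 on chromosome 7, and Gabre, Gabra3 and Gabrq on the X chromosome. Of the 15 GABA-A genes, 2 rose and 2 fell at 6 h, 0 rose and 3 fell at 3 d, and 1 rose and 8 fell at 15 d, where 11.5% and 9.76%, 23.4% and 23.2%, and 23.6% and 23.8% of all genes did. Gabrd, the delta subunit gene, was at 122, 125, 146 and 138 CPM in the intact libraries, 122, 118, 109 and 112 at 6 h, 104, 98.1, 95.2 and 80.1 at 3 d and 97.97, 96.7, 87.7 and 90.9 at 15 d. At 6 h one WT library reached the intact range, and every later library lay below it. Its changes were -0.20 ± 0.05, -0.49 ± 0.05 and -0.51 ± 0.05 (adjusted p = 0.0149, 4.82e-06 and 3.23e-06). The 6 h call of Gabrd was lost without GS intact replicate 1, WT 6 h replicate 2 or GS 6 h replicate 1 (adjusted p = 0.0567, 0.0636 and 0.0586).

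Among the alpha subunit genes, Gabra4, a partner of the delta subunit in striatal projection neurons, was at 205, 217, 209.6 and 237 CPM in the intact libraries, 231, 234, 204 and 191 at 6 h, 224, 189, 196 and 202 at 3 d and 168, 137, 151 and 136 at 15 d. Only the 15 d libraries stood apart, below all others. Its change was -0.02 ± 0.07 at 6 h and -0.10 ± 0.07 at 3 d, neither of which passed, and -0.55 ± 0.07 at 15 d (adjusted p = 2.26e-05). Gabra5, which is known from extrasynaptic receptors of the hippocampus, was at 20.0, 21.3, 19.3 and 15.0 CPM intact, 14.2, 14.7, 18.1 and 17.5 at 6 h, 16.9, 12.9, 11.6 and 11.8 at 3 d and 12.5, 10.8, 14.4 and 11.7 at 15 d. GS intact replicate 2 was the lowest intact library and overlapped with the 3 d range, and all 15 d libraries lay below it. The changes of Gabra5 at 3 d and 15 d were -0.51 ± 0.10 and -0.61 ± 0.10 (adjusted p = 0.000918 and 0.000221). Gabra2 and Gabra3 passed at no time, with changes at 15 d of -0.07 ± 0.07 and -0.13 ± 0.10.

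The beta subunits are needed for GABA binding and assembly. Gabrb1 was at 134, 141, 134 and 127 CPM in the intact libraries, 170.5, 167, 171 and 161 at 6 h, 147, 124, 129 and 152 at 3 d and 158, 138, 152 and 135 at 15 d. The 6 h libraries were above every intact library, and the later ones overlapped with them. Gabrb1 rose by 0.32 ± 0.07 at 6 h (adjusted p = 0.00548), and its changes of 0.04 ± 0.07 at 3 d and 0.12 ± 0.07 at 15 d did not pass. Gabrb2 was called at 15 d alone, with a change of -0.29 ± 0.09 (adjusted p = 0.0212). The call of Gabrb2 was lost without WT intact replicate 2, GS intact replicate 1, WT 15 d replicate 2 or GS 15 d replicate 2, with adjusted p up to 0.103.

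Gabra4 and Gabrb1 lie head to head on chromosome 5 (mm10), Gabra4 at 71569734 to 71658308 on the minus strand and Gabrb1 at 71657921 to 72149572 on the plus strand, with 46 bases of exon in common. The sequence upstream of Gabra4 is shown because the neighbours parted at 15 d: the 95% interval of the change was -0.71 to -0.40 for Gabra4 and -0.03 to 0.27 for Gabrb1. It is chr5:71658364-71658558 on the minus strand (RefSeq, GRCm38.p6), 195 bases that hold no exon in GENCODE M21 and lie within an intron of Gabrb1, with its 10 CG dinucleotides in capitals.
Gabra4 upstream: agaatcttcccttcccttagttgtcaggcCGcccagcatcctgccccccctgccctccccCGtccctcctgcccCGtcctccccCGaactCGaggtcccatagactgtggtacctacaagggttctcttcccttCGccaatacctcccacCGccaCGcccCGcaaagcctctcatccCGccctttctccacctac

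Gamma subunits anchor receptors at synapses and form the benzodiazepine site with an alpha subunit. Gabrg3 was at 66.2, 62.8, 66.2 and 75.0 CPM intact, 57.9, 62.0, 58.8 and 49.9 at 6 h, 68.7, 62.8, 67.9 and 65.0 at 3 d and 63.7, 51.7, 58.6 and 53.1 at 15 d. Its 6 h libraries were below every intact library, but the call there (-0.24 ± 0.07, adjusted p = 0.0306) was lost on leaving out any of 6 libraries, with adjusted p up to 0.133. Its 15 d call (-0.25 ± 0.07, adjusted p = 0.0119) was lost without GS intact replicate 2, WT 15 d replicate 2 or GS 15 d replicate 2, with adjusted p up to 0.0603. Gabrg1 passed at no time and had a change of 0.26 ± 0.10 at 15 d.

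The other calls upward were in genes near or below 1 CPM. Gabrr2, a rho subunit gene known from the retina, was at 0.392, 0.563, 0.342 and 0.599 CPM intact, 1.18, 1.32, 0.885 and 1.60 at 6 h, 0.514, 0.447, 0.343 and 0.311 at 3 d and 0.553, 0.669, 0.546 and 0.559 at 15 d. The 6 h libraries stood above all others, with 54 or more counts in each against 20 or more in each intact library, and the change was 1.39 ± 0.24 (adjusted p = 0.00146). Gabre was at 0.410, 0.263, 0.650 and 0.257 CPM intact and 0.854, 0.806, 1.11 and 0.595 at 15 d, with overlapping ranges. Its change of 1.102 ± 0.32 at 15 d (adjusted p = 0.0107) was lost without GS 15 d replicate 1 (adjusted p = 0.0616).

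The GABA-B receptor is an obligatory pair of the Gabbr1 and Gabbr2 products. Gabbr2, which couples the pair to G proteins, was at 107, 83.2, 94.6 and 83.5 CPM intact, 78.1, 89.01, 81.7 and 82.1 at 6 h, 77.5, 67.0, 70.8 and 66.6 at 3 d and 67.6, 60.7, 68.3 and 61.6 at 15 d. The 3 d and 15 d libraries lay below every intact library (-0.39 ± 0.08 and -0.51 ± 0.08, adjusted p = 0.0013 and 0.000127). Gabbr1 was at 754 to 848 CPM intact, 686 to 810.0 at 3 d and 594 to 619.6 at 15 d, and passed at 15 d alone (-0.37 ± 0.05, adjusted p = 4.72e-05).

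Several 6 h calls were lost without the 3 WT libraries high in cortical markers, and several 3 d calls with the marker level as a covariate. The mean log2 changes of these markers at the 3 times were -0.53, -1.39 and -0.83. Without the 3 WT libraries that were high in them, 5 of the 11 calls at 6 h were left, and Gria1, Grin2a, Gabrb1, Gabrd, Gabrg3 and Grin3a no longer passed (adjusted p = 0.0865, 0.0683, 0.0545, 0.116, 0.0899 and 0.16), at changes of 0.25, 0.38, 0.31, -0.20, -0.25 and -0.29. Apart from Grin3a, these changes were close to those with all 16 libraries. This fit held fewer libraries, and why the calls were lost was not tested. With the marker level as a covariate, 10 of the 11 were left, all but Gabrg3 (adjusted p = 0.0645). At 3 d, 15 of the 18 calls were left without the 3 WT libraries, all but Gria1, Gria3 and Grm2, and 9 with the covariate. Those lost with the covariate included Gabbr2, Gria1, Gria3, Grik2, Grik3, Grin2b and Grm2, with adjusted p between 0.095 for Gabbr2 and 0.742 for Grm2. At 15 d, 26 of 29 calls were left under either alternative. The mean log2 CPM of the markers was 1.8 to 2.23 at 3 d and 2.43 to 3.97 intact, so covariate and stage cannot be fully told apart there. The part of cortical tissue in these changes was not tested further.

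Within receptor families, the make-up of subunit RNA was unequal between stages, given here as shares of CPM per kilobase of exon, which show unequal change within a set and not which gene changed. Grin2a made up 13.4% to 14.9% of GluN2 RNA in the intact libraries and 18.5% to 20.1% at 6 h, while the share of Grin2c went from 42.3% to 45.0% to 35.7% to 38.4%. At 15 d Grin2a was at 11.4% to 14.5%, overlapping with the intact range. Gabra2 made up 20.5% to 21.99% of alpha subunit RNA in the intact libraries, 23.4% to 26.4% at 3 d and 25.7% to 27.3% at 15 d. The share of Gabra4 was 37.6% to 44.2% intact and 33.5% to 36.5% at 15 d. Gabrb1 made up 9.92% to 10.97% of beta subunit RNA intact and 13.7% to 14.5% at 15 d, and Gabrg1 11.2% to 15.3% of gamma subunit RNA intact and 18.6% to 21.4% at 15 d. These shares are descriptions of 4 libraries each, with no test.

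**Figure D3:**
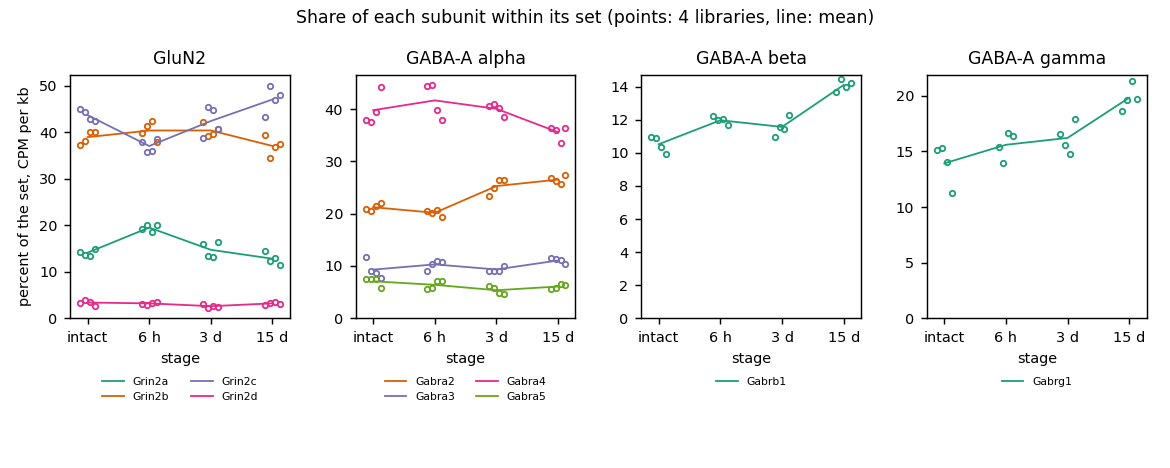
Share of each gene in the summed CPM per kilobase of its set (vertical axis, percent) by stage, for the GluN2 genes, 4 alpha genes of the GABA-A receptor, and Gabrb1 and Gabrg1 in the beta and gamma sets; points are the 4 libraries of a stage and lines join their means. The Grin2a points at 6 h (18.5% to 20.1%) lie above those of all other stages, and the Gabrb1 points at 15 d (13.7% to 14.5%) above the intact ones (9.92% to 10.97%).

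Relative to the pan-neuronal markers, most falls at 3 d and 15 d did not pass the test. More members were called higher than lower, as were more of all genes, since the scaling raised genes in general. At 3 d and 15 d the share called higher was smaller among members than over all genes. In this comparison, added after the values had been seen, each library was scaled to the mean log2 level of the 8 markers, which moved the median change of all genes to 0.08 at 6 h, 0.27 at 3 d and 0.35 at 15 d. At 6 h, 6 members were higher (among them Gabrb1, Gabrr2, Gria1, Grin1 and Grin2a) and 3 lower (Grin2c and Grm3 among them), where 15% and 3.4% of all genes were called. At 3 d, 12 members were higher (among them Gabbr1, Gabra2, Gabra4, Gabrb1, Gabrg1, Gabrg3, Gria2, Grm3, Grm7 and Grm8) and 5 lower (Gabra5, Gabrd, Grik5, Grin1 and Grin2d), where 48.5% and 5.21% of all genes were. At 15 d, 10 were higher (among them Gabra2, Gabra3, Gabrb1, Gabre, Gabrg1, Gabrq, Gabrr2, Grik4 and Grm3) and 2 lower (Gabra4 and Gabra5), where 59.9% and 3.3% were. Of those named as higher at 3 d, Gabbr1, Gabra4, Gria2, Grm7 and Gabrg3 (0.162 to 0.251) rose less than the median gene (0.265). At 15 d Gabra2 (0.302), Gabra3 (0.245) and Grm3 (0.333) did so (median 0.354).

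At 15 d the values of Gabra4 and Gabra5 relative to the markers were -0.18 ± 0.06 and -0.24 ± 0.10 (adjusted p = 0.0143 and 0.0407), and both calls depended on single libraries. That of Gabra4 was lost without WT intact replicate 2, GS intact replicate 2, WT 15 d replicate 2 or GS 15 d replicate 2. That of Gabra5 was lost without any of 10 libraries, namely WT intact replicates 1 and 2, GS intact replicate 1, any 6 h library, WT 15 d replicates 1 and 2 and GS 15 d replicate 2, and under both cortical alternatives. At 3 d the calls of Gabra4 and Gabra5 on this scale were also lost without any of 3 and 11 libraries. The 3 d call of Grin2d was lost without WT intact replicate 2, GS intact replicate 1, WT 3 d replicate 2 or either GS 3 d library. That of Gabrd was lost without GS 3 d replicate 2, and that of Gabbr1 without GS intact replicate 1 and under both cortical alternatives. The 15 d calls of Gabrr2 and Gabra3 were lost without several single libraries and without the 3 WT libraries high in cortical markers. Grin1 was lower than the markers at 3 d (-0.23 ± 0.06, adjusted p = 0.00533). Its value at 15 d was -0.14 ± 0.06 (adjusted p = 0.0571), which passed with the cortical covariate and without GS 3 d replicate 1, GS 3 d replicate 2, WT 15 d replicate 2 or GS 15 d replicate 2. The 6 h calls of Grin1 and Grin2c on this scale were lost without any of 8 and 10 libraries, all intact and 6 h ones among them. Gabrb1 was higher than the markers at all 3 times (0.40 ± 0.07, 0.32 ± 0.07 and 0.50 ± 0.07, adjusted p = 0.000763, 0.000738 and 1.2e-05). Grm3 was lower at 6 h and higher at 3 d and 15 d (-0.33 ± 0.07, 0.59 ± 0.07 and 0.33 ± 0.07, adjusted p = 0.00336, 4.47e-06 and 0.000557). The median of all genes on this scale was 0.08, 0.27 and 0.35 at the 3 times. Gabrb1 at 3 d and Grm3 at 15 d thus lay near the typical gene. With projection neuron markers in place of the pan-neuronal list, 4 members were higher and 3 lower at 6 h, 5 and 5 at 3 d, and 12 and 0 at 15 d, so that Gabra4 and Gabra5 did not pass there.

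**Figure D4:**
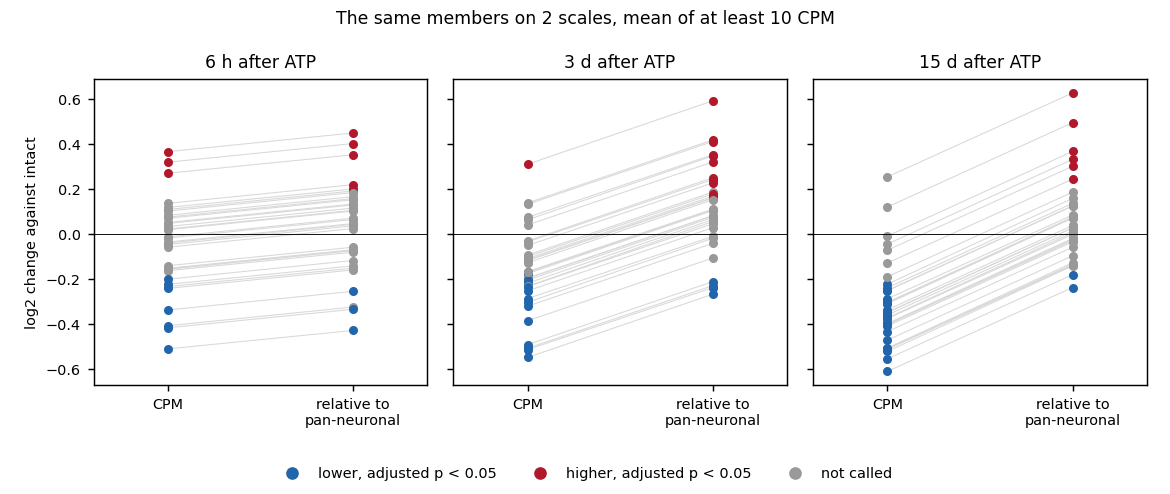
Log2 change against intact (vertical axis) of the 34 members with a mean of 10 CPM or more, before and after scaling relative to the pan-neuronal markers, with a line joining each member; colours mark calls. At 15 d the cloud of members called lower on the CPM scale moves to around 0 on the relative scale, where Gabra4 (-0.18) and Gabra5 (-0.24) are the 2 members called lower with all libraries, and each call was lost without some single libraries.

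The step from 3 d to 15 d does not use the intact libraries. Across it, 3 members rose and 12 fell (edgeR adjusted p under 0.05), where 6.76% of all genes rose and 7.07% fell, and the median change was -0.09 for members and 0.00 for all genes. Of the members, 7.14% rose and 28.6% fell, so the rises were near the share of all genes. The 15 d libraries lay wholly below those of 3 d for 8 members and above them for 4, where 8.11% and 8.07% of all genes did. Gabra4 (-0.45 ± 0.07, adjusted p = 0.00147) and Grm3 (-0.35 ± 0.06, adjusted p = 0.0014) were the calls that held in all 25 alternatives. Of the metabotropic genes 5 of 7 fell, among them Grm3, Grm5, Grm7 and Grm8. Grik5, which had been lowest at 3 d, rose by 0.24 ± 0.06 (adjusted p = 0.0172), a call lost without GS 3 d replicate 2, WT 15 d replicate 2 or GS 15 d replicate 2. Pan-neuronal markers had a mean change of -0.10 across this step, with 2 of 8 called lower, and projection neuron markers one of -0.22, with 5 of 10 called lower. At 3 d, WT replicate 1 was the highest of the 4 libraries for 30 of 42 members, and it also held the most pan-neuronal (4918 CPM) and the fewest microglial (742 CPM) marker counts of that stage. WT 15 d replicate 1 was the highest of its stage for 23 of 42 members, with the most pan-neuronal (4222 CPM) and the fewest microglial (871 CPM) marker counts there. The part of this in the step was not tested. Leaving out WT 3 d replicate 1 left 5 calls, and leaving out GS 3 d replicate 2, WT 15 d replicate 2 or GS 15 d replicate 2 left 7, 3 and 4.

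Within each genotype the same injury comparisons gave fewer calls, with 2 libraries against 2. In WT, 1 member rose and 2 fell at 6 h, 1 rose and 8 fell at 3 d, and 0 rose and 20 fell at 15 d, where 2.54% and 1.55%, 14.7% and 12.7%, and 14.2% and 11.2% of all genes rose and fell. In GS, 2 rose and 5 fell at 6 h, 1 rose and 14 fell at 3 d, and 2 rose and 24 fell at 15 d, where 7.47% and 6.37%, 18.6% and 16.4%, and 19.4% and 17.6% did. The genotypes shared 3 calls at 6 h (of 3 in WT and 7 in GS), 8 at 3 d (of 9 and 15) and 17 at 15 d (of 20 and 26), all in the same direction. The share of all genes called in both genotypes was not counted. Shared at 6 h were Gabrr2, higher, and Grin2c and Grm3, lower. Single libraries moved these counts. The 6 h count of 3 in WT became 0 without either WT 6 h library, 1 without either WT intact library, 7 without either WT 3 d library, 6 without either GS 3 d library and 5 without either WT 15 d library. The 3 d count of 9 in WT became 4 without WT intact replicate 1 and 3 without WT 3 d replicate 2, and the 15 d count of 20 became 12 or 11 without the first or second WT intact library and 8 on dropping WT 15 d replicate 2. In GS, the 6 h count of 7 became 4 without GS intact replicate 2 or either GS 6 h library. The 3 d count of 15 in GS became 8 or 9 without the first or second GS intact library and 7 on dropping GS 3 d replicate 2, and the 15 d count of 26 became 17 without GS 15 d replicate 2.

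**Figure D5:**
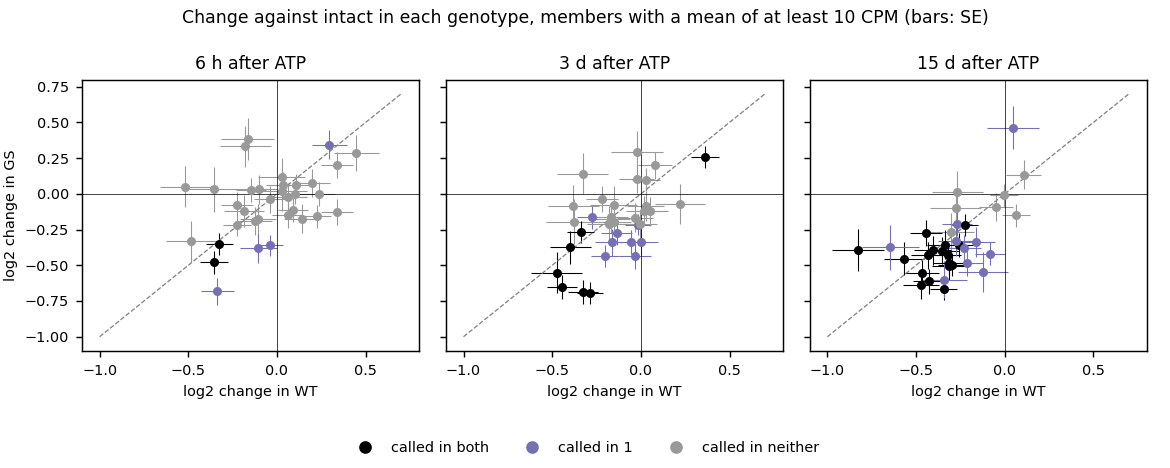
Log2 change against the intact libraries of the same genotype in WT (horizontal axis) and GS (vertical axis) for the 34 members with a mean of at least 10 CPM, at 6 h, 3 d and 15 d; bars are SE, the dashed line is equality and colours give the number of genotypes with a call. At 15 d most members lie below 0 in both genotypes.

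Between the genotypes, 0 of 42 members passed in the intact striatum, at 6 h, at 3 d, at 15 d or with the stages averaged (edgeR adjusted p of at least 0.231), where 0.0159%, 0.00532%, 0.0106%, 0.00532% and 0.0106% of all genes did. At an unadjusted p under 0.05 there were 8, 3, 3, 0 and 1 members, where 10.9%, 6.83%, 8.25%, 4.86% and 9.87% of all genes passed. DESeq2 called 1 member, Grik3, in the intact striatum and 0 elsewhere, and limma-voom called 0 throughout. Grik3 was at 124 and 134 CPM in the WT and 155 and 168 CPM in the GS intact libraries, a difference of 0.33 ± 0.08 (edgeR adjusted p = 0.231; DESeq2 adjusted p = 0.0299). With stages averaged, the difference between GS and WT lay between -0.10 (Gria2) and 0.09 (Grid1) for the 34 members that averaged 10 CPM or more, and the 95% intervals of all 34 lay between -0.24 and 0.19. At single stages the intervals were wider and reached -0.71 and 0.61.

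The response to injury did not pass as different between genotypes for any member (0 of 42 at each time by edgeR, DESeq2 and limma-voom; 10, 6 and 3 members at an unadjusted p under 0.05 by edgeR). Over all genes, 0.0106%, 0% and 0% passed adjusted and 9.42%, 9.92% and 5.46% unadjusted. The lowest adjusted p was 0.297 at 6 h, for Gabrq and Grm4, with a GS response minus WT response of 1.63 ± 0.45 and -0.47 ± 0.13. Gabrd had changes of -0.29 ± 0.07 in WT and -0.69 ± 0.07 in GS at 3 d. Their difference passed without GS 3 d replicate 1 (-0.54, adjusted p = 0.0456), as did the difference between the genotypes of Gabrd at 3 d (-0.34, adjusted p = 0.0449), and neither passed with all libraries. Among the members called higher in GS alone at 15 d, Gabrg1 had changes of 0.46 ± 0.15 in GS and 0.05 ± 0.15 in WT, and Gabrq 0.91 ± 0.31 and -0.01 ± 0.31. Both calls were lost without GS intact replicate 2 (Gabrg1 0.30, Gabrq 0.59) or GS 15 d replicate 1 (Gabrg1 0.28, adjusted p = 0.246; Gabrq 0.59, adjusted p = 0.265). The difference between the genotypes did not pass for either.

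Lists of related synaptic genes each held more genes called lower than higher at 15 d, with median log2 changes of -0.40 (auxiliary subunits), -0.34 (excitatory scaffolds), -0.29 (inhibitory scaffolds), -0.18 (transporters) and -0.24 (metabolism) beside -0.02 over all genes. Over all genes, 11.5% rose and 9.76% fell at 6 h, 23.4% and 23.2% at 3 d, and 23.6% and 23.8% at 15 d. Of 16 genes for auxiliary subunits of AMPA and kainate receptors, 2 rose and 6 fell at 6 h, 2 rose and 9 fell at 3 d, and 1 rose and 12 fell at 15 d. The largest changes at 15 d were in Cnih3 (-0.99 ± 0.20), Neto2 (-0.69 ± 0.10), Gsg1l (-0.66 ± 0.07) and Cacng2, which encodes stargazin (-0.65 ± 0.07). Of 20 genes for excitatory postsynaptic scaffolds, 1 rose and 10 fell at 6 h, 2 rose and 11 fell at 3 d and 1 rose and 15 fell at 15 d. Dlgap3 (-0.62 ± 0.07), Grip1 (-0.49 ± 0.06) and Nlgn1 (-0.41 ± 0.07) fell, and Homer3 rose (0.80 ± 0.15). Of 12 genes for inhibitory scaffolds and GABA receptor partners, 1 rose and 2 fell at 6 h, 2 rose and 7 fell at 3 d and 2 rose and 7 fell at 15 d. Among them Insyn1 (-0.74 ± 0.08), Gphn, which encodes gephyrin (-0.47 ± 0.05), and Shisa7 (-0.47 ± 0.05) fell at 15 d.

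Of 10 genes for glutamate and GABA transporters, 1 rose and 1 fell at 6 h, 1 rose and 4 fell at 3 d and 2 rose and 5 fell at 15 d. Over all genes, 11.5% rose and 9.76% fell at 6 h, 23.4% and 23.2% at 3 d, and 23.6% and 23.8% at 15 d. The transporter counts at 6 h were near those shares. Slc17a7, the vesicular transporter of cortical glutamate neurons and one of the cortical markers, had a change of -1.78 ± 0.58 at 15 d (-0.65 and adjusted p = 0.307 without WT intact replicate 1, -1.21 without the 3 WT libraries, and no call without WT 15 d replicate 2 or GS 15 d replicate 2), Slc17a8 one of -0.62 ± 0.13 and the vesicular GABA transporter Slc32a1 one of -0.41 ± 0.09, while the astrocyte glutamate transporter Slc1a3 rose by 0.37 ± 0.05. Of 9 genes of glutamate and GABA metabolism, 2 rose and 2 fell at 6 h, 1 rose and 3 fell at 3 d and 1 rose and 6 fell at 15 d. At 15 d the GABA-synthesizing enzyme genes Gad1 (-0.36 ± 0.06) and Gad2 (-0.245 ± 0.08) fell, as did the glutaminase gene Gls2 (-0.43 ± 0.08). At 6 h Gad2 rose by 0.29 ± 0.08. The Gad2 calls were lost in 6 alternatives at 6 h and 5 at 15 d, with adjusted p up to 0.219 and 0.113.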

How the data were processed

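The authors deposited raw read counts per gene for 16 libraries of mouse striatum, with NCBI Gene IDs and symbols, per the file headers. FastQC 0.11.7 and the build mm10 are named, per the submitters' processing notes; aligner, counter and strand setting: not given in the sources used here. Columns marked NT were taken as WT, and those marked 0 as intact, by elimination. The members and lists were chosen with earlier results of these data known.

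Genes with low counts were removed with filterByExpr by group (644 of 19457, no member), libraries scaled with TMM (0.947 to 1.034), and edgeR 4.0.16 (R 4.3.3) fitted by quasi-likelihood with 1 coefficient per group over all 16 libraries (8 residual degrees of freedom, biological coefficient of variation 10.1%). P-values were adjusted over all 18813 genes in each of 18 contrasts and called at 0.05. The script was tested on simulated data. CPM use the TMM-scaled library size, and levels between genes use CPM per kilobase of annotated exon.

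Values in every library are given for up to 8 members per direction with the largest change among those called in each injury comparison, with a mean of at least 1 CPM, which made 18 members. Results for some genes are not reported here, although counts over all members include them. All other members are accounted for and may be named. Of each related list, up to 4 called genes with the largest change at 15 d are given.

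Alternatives were DESeq2 1.42.0, limma-voom (limma 3.58.1), RLE factors, other filters, fewer groups, a replicate block, a cortical marker covariate, the fit without 3 WT libraries and each library left out. Promoter windows and positions are from RefSeq GRCm38.p6, 1-based.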

Additional observations from a re-analysis of the deposited data

Results flagged for a closer look

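For 15 members the change against the intact libraries differed between 3 d and 15 d, by the test of the step itself (edgeR, adjusted p under 0.05, genotypes averaged). Over all genes, 6.76% rose and 7.07% fell across this step. For the 15 members the differences were as follows. The log2 change at 15 d minus that at 3 d was below 0 for 12 of them, among them Gabra4 (-0.454), Grm8 (-0.412), Grm3 (-0.355), Gria2 (-0.297), Grm7 (-0.269), Grm5 (-0.266), Gabbr1 (-0.255), Gria4 (-0.231) and Grin2b (-0.197). It was above 0 for Grik5 (0.239), Grik4 (0.482) and Gabre (1.15). All 4 libraries at 15 d were below all 4 at 3 d for Gabra4, Grm8, Grm3, Grm7, Gabbr1 and Gria4, and above them for Grik5, Grik4 and Gabre. The lowest adjusted p was 0.0014, for Grm3, and the highest 0.0475, for Grin2b. Grin2b lost its call on leaving out any of 12 of the 16 libraries, and Gabre and Grik4 any of 6. Gria2, Gria4, Grik5, Grm5, Grm7 and Grm8 lost theirs without any of 3 or 4. Gabra4, Grm3 and Gabbr1 kept theirs without each library.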

How the results depend on the processing

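No member's change reversed its sign with a call under any alternative; over all comparisons, 18253 values for members kept their side of the threshold, 369 lost a call and 182 gained one. Of the calls with genotypes averaged, 4 of 11 at 6 h, 8 of 18 at 3 d and 23 of 29 at 15 d held in every alternative run. Counts of members called moved by over 1.5 times as follows. Fitted with the groups of the comparison alone, the count went from 11 to 17 at 6 h, from 3 to 12 at 6 h in WT, from 7 to 12 at 6 h in GS and from 15 to 4 for 15 d against 3 d. Without the 3 WT libraries high in cortical markers it was 5 at 6 h, and 0, 2 and 12 at 6 h, 3 d and 15 d in WT. With the cortical covariate it was 9 at 3 d, and 5 and 4 at 6 h and 3 d in WT. DESeq2 gave 11 at 6 h in WT and 1 for GS against WT in the intact striatum. Relative to projection neuron markers, 10 members were called at 3 d in place of 17.

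Leaving out 1 library gave 9 to 12 calls at 6 h, 12 to 23 at 3 d and 27 to 30 at 15 d; in WT 0 to 7, 3 to 12 and 8 to 25; in GS 4 to 7, 7 to 16 and 17 to 27; 3 to 19 for 15 d against 3 d; 0 to 1 for GS against WT at 3 d and for the difference in response at 3 d. Relative to the pan-neuronal markers the ranges were 6 to 10, 12 to 19 and 10 to 14. Same-numbered libraries of 28 pairs of groups correlated at -0.14 to 0.29, over 0.1 in 5 pairs, so the numbers were not taken as pairs. A replicate block gave 11, 19 and 30 calls at the 3 times and 5 at 6 h in WT. With 2 libraries per group, small differences between genotypes were not detectable, and genes under 1 CPM rest on few counts.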
